A study of Mus musculus with 12 samples.

Results

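The ID genes (Id1, Id2, Id3 and Id4) and 4 genes of BMP/SMAD feedback (Smad6, Smad7, Bambi and Bmp4) were followed through serum stimulation and Lap2 depletion of mouse fibroblasts. These 8 genes were chosen by name, with earlier results of these data known. All 8 were found by symbol among the 49671 genes that each library lists. Of them 7 had enough reads to be tested, as had 18668 genes in all, which needed a count above 1 in at least 3 libraries. Bmp4 did not pass this filter.

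The RNA-seq series holds 4 groups of 3 libraries from NIH 3T3, a fibroblast line that was derived from mouse embryos and grows without limit. Cells of every group were transfected with siRNA, either a control siRNA or a Lap2 siRNA against all isoforms made by the Tmpo gene, which encodes lamina-associated polypeptide 2. Cells with control siRNA are called control cells and those with Lap2 siRNA Lap2-depleted cells. By the methods, all Lap2-depleted cells received the same siRNA sequence. Effects of losing Lap2 and other effects of this sequence therefore cannot be told apart here. Serum-starved cells were in 0.3% FBS, and serum-stimulated cells received 15% FBS for 45 min, a time stated in the methods. Ribosomal RNA was removed before library preparation. The labels do not say whether replicates were separate cultures, so that p-values measure only the spread between these libraries, which may be technical.

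Bone morphogenetic proteins (BMPs) are secreted ligands that bind paired receptors, which phosphorylate receptor-regulated SMADs, and these enter the nucleus with Smad4 and bind target genes. ID proteins are helix-loop-helix proteins without a DNA-binding region. They pair with E proteins, hold them off DNA and oppose differentiation, and their genes are among the best known direct BMP targets. Smad6 and Smad7 are inhibitory SMADs, and Bambi is a receptor-like protein without a kinase domain. All are induced by the signal that they dampen, which makes them a negative feedback. Several ID genes are also known as immediate early genes, which respond to serum without new protein synthesis.

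Total counts were 18026298 to 26265253 per library. Normalized counts are counts per library size after TMM scaling, multiplied by the mean of the 12 scaled sizes. Tmpo had 2822 ± 56.9 normalized counts in serum-starved and 3175 ± 136 in serum-stimulated control cells, against 1083 ± 97.4 and 706 ± 87.0 in Lap2-depleted cells (SD, n = 3 each). Of the 6 fibroblast markers examined, all were abundant, with Col1a2 at 141400 to 209700 normalized counts on average in a group. Of markers of other cells, Epcam, Krt18, Krt8, Kdr, Myog and Ckm had 0 to 3 reads per group of 3 libraries. More reads per group were seen for the epithelial marker Cdh1 (15 to 48), the endothelial markers Pecam1 (18 to 38) and Cdh5 (1 to 7) and the leukocyte markers Ptprc (11 to 19) and Cd68 (93 to 141).

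Promoters were read from the RefSeq table (GRCm38.p6), which had an entry for 5 of the 8 genes: Bmp4, Smad6, Id2, Id3 and Id4. Each entry covers 250 bases before to 50 bases after the transcription start site. The 2 short words that SMAD complexes are best known to recognize in BMP targets and in SMAD-responsive genes, GGCGCC and the palindrome GTCTAGAC, were found in Id2 and Id4 and in Smad6, respectively. The stretches that hold them are shown because these 3 genes took different courses with Lap2 siRNA. Whether the words bear on these courses was not tested. Both the words and the stretches were chosen after the matches were seen. Capitals mark the word. The Id2 stretch is chr12:25096254-25096342 on the minus strand, the Id4 stretch is chr13:48260866-48261015 on the plus strand, and the Smad6 stretch is chr9:64022045-64022074 on the minus strand, across the start site.
Id2: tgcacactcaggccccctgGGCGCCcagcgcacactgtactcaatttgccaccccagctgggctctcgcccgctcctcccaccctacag
Id4: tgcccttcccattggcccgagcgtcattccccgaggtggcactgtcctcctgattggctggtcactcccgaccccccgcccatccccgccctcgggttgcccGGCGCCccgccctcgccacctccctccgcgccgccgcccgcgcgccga
Smad6: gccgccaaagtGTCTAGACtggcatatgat

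Counted from the RefSeq start site, the first base of GGCGCC was at position -231 in Id2 and -148 in Id4. That of GTCTAGAC was at -4 in Smad6. In the GENCODE M21 annotation Id2 extends further upstream (chr12:25093799-25097140, minus strand). The Id2 stretch thus lies inside the GENCODE gene bounds, with 0 of its bases in GENCODE exons. It is upstream of the gene by the RefSeq start and by the gene bounds given with the deposited counts (chr12:25093801-25096092). On either strand, 11.9% of the 32851 promoters in the table held GGCGCC and 0.213% held GTCTAGAC. The shorter SMAD word CAGAC, held by 49.6% of promoters, was present only in Id3 among the 5, and TGACG, the core of a cAMP response element (20.8% of promoters), in Id3 and Id4. In Id3 a CAGAC and a TGACG match overlap. The GC box GGGCGG (35.7% of promoters) was present in all 5. None of the 5 held a CArG box, the serum response factor motif, found in 1.63% of promoters. A match says only that these letters are in the window.

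Serum stimulation raised all 7 tested genes with either siRNA. The small rise of Smad6 with control siRNA depended on the scaling and on single libraries, as given below. The log2 fold change (log2FC) of 15% against 0.3% FBS had a median of 1.81 over the 7 genes with control siRNA and of 1.56 with Lap2 siRNA, beside -0.01 and 0.00 over all tested genes. By edgeR's quasi-likelihood test (threshold 0.05 after Benjamini-Hochberg adjustment), 15.6% of all tested genes were higher after serum with control siRNA and 18.3% with Lap2 siRNA. Lap2 siRNA changed the starting level in 0.3% FBS for 6 of the 7 genes. Of these 4 were higher (Smad7, Id1, Id2 and Id3) and 2 lower (Bambi and Id4), where 17.8% of tested genes were higher and 18.6% lower. In 15% FBS Lap2 siRNA changed 4. Of these Smad6, Smad7 and Id2 were higher and Bambi was lower, where 11.4% were higher and 12.1% lower. The medians of the 7 genes for Lap2 siRNA were 0.59 in 0.3% FBS and 0.12 in 15% FBS, beside 0.01 and 0.02 over all tested genes. These contrasts share libraries, so their values are given side by side. In RNA from whole cultures, a change in the share of cells that express a gene and a change in RNA per cell cannot be told apart.

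**Figure D1:**
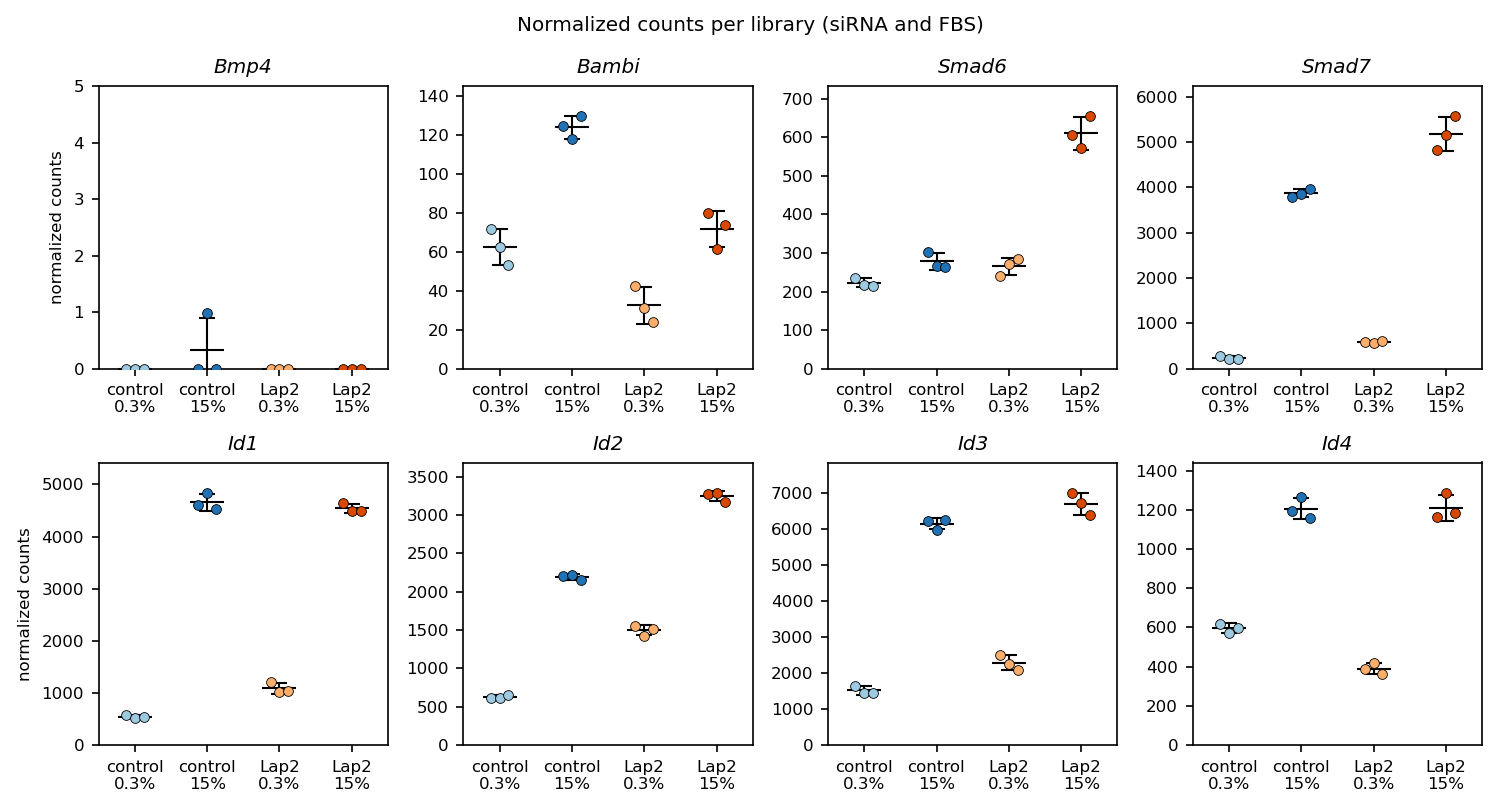
Normalized counts (vertical axes, from 0) of the 8 genes in the 12 libraries, by siRNA and FBS (horizontal axes). Points are libraries, horizontal bars are means and whiskers are SDs (n = 3). Id1 and Id4 overlap between the siRNAs in 15% FBS but lie apart in 0.3% FBS, in opposite order, whereas Smad6 in Lap2-depleted cells after serum (572 to 655) stands above every other library.

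The ligand was barely detected. Bmp4 (ENSMUSG00000021835), a BMP ligand on chromosome 14 (chr14:46383520-46390669, GRCm38, minus strand), had 1 read in 1 library of serum-stimulated control cells and 0 in the other 11 libraries. A count of 0 allows up to 3 reads in a library. With every gene that had any count kept in the fit, Bmp4 gave adjusted p-values of 0.61 to 1.0 in the 5 contrasts by edgeR's quasi-likelihood test. Of the 10 other BMP-type ligands examined, 3 were tested and 7 (Bmp2, Bmp3, Bmp5, Bmp7, Bmp8a, Gdf6 and Gdf7) had 0 to 3 reads in all 12 libraries together. Gdf5, a ligand known from joint development, was the only abundant ligand of the 3, at 210 normalized counts on average over the 12 libraries.

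Bambi (ENSMUSG00000024232), the pseudoreceptor, lies on chromosome 18 and had the fewest reads of the tested genes, 23 to 140 per library. The 3 libraries of serum-starved control cells had 71.6, 62.4 and 52.9 normalized counts of Bambi, and the serum-stimulated libraries had 124, 118 and 129. With Lap2 siRNA, Bambi had 42.2, 31.2 and 23.7 normalized counts in 0.3% FBS and 79.7, 61.5 and 73.4 in 15% FBS. Every Lap2-depleted library was below every control library in the same serum, and the stimulated Lap2-depleted libraries lay in the range of the starved control libraries or just above it. Serum raised it by a log2FC of 0.98 in control and 1.13 in Lap2-depleted cells (standard errors 0.19 and 0.22, edgeR adjusted p = 6.9e-05 and 9.4e-05). The serum responses differed by 0.14 (95% confidence interval -0.44 to 0.73, edgeR adjusted p = 0.82), so that a difference was not detectable. Bambi was lower in Lap2-depleted cells by a log2FC of -0.93 in 0.3% FBS and of -0.79 in 15% FBS (standard errors 0.22 and 0.18, edgeR adjusted p = 0.00085 and 0.0014). It was the only one of the 7 genes that was lower with Lap2 siRNA before and after serum.

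Smad6 (ENSMUSG00000036867; chr9:63953076-64022059, minus strand) encodes the inhibitory SMAD best known for blocking BMP-type signals. Its libraries had 236, 217 and 215 normalized counts in serum-starved and 303, 267 and 264 in serum-stimulated control cells. In Lap2-depleted cells Smad6 had 241, 273 and 283 in 0.3% FBS and 605, 572 and 655 in 15% FBS. The starved Lap2-depleted and the stimulated control libraries overlapped, while the stimulated Lap2-depleted libraries were all far above the rest. The log2FC for serum was 0.33 with control siRNA (standard error 0.11, edgeR adjusted p = 0.019) and 1.20 with Lap2 siRNA (standard error 0.10, edgeR adjusted p = 9.5e-12). The difference between the serum responses was 0.88 (95% confidence interval 0.58 to 1.18, edgeR adjusted p = 4.5e-05). Lap2 siRNA gave a log2FC of 1.13 in 15% FBS (standard error 0.10, edgeR adjusted p = 1.1e-10), the largest of the 7 genes there, and of 0.25 in 0.3% FBS (95% confidence interval 0.03 to 0.47, edgeR adjusted p = 0.065).

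The small changes of Smad6 depended on single libraries and on the scaling. Its serum response with control siRNA lost its call without replicate 3 of the 0.3% FBS group (edgeR adjusted p = 0.053) or replicate 1 of the 15% FBS group (0.13), and after scaling to total counts, when the log2FC was 0.12 (edgeR adjusted p = 0.42), or by upper quartile (0.23, edgeR adjusted p = 0.098). Its rise with Lap2 siRNA in 0.3% FBS gained a call without replicate 1 of the control siRNA group (edgeR adjusted p = 0.044) or of the Lap2 siRNA group (0.015), and after scaling to total counts (log2FC 0.36, edgeR adjusted p = 0.0072) or by upper quartile (edgeR adjusted p = 0.047). Total-count scaling shifted the median over all genes, in log2FC, to -0.21 and -0.23 for serum with control and Lap2 siRNA, and to 0.12 and 0.10 for Lap2 siRNA in 0.3% and 15% FBS.

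Smad7 (ENSMUSG00000025880) encodes the inhibitory SMAD that acts on both BMP and TGF-β receptors, and lies on chromosome 18 like Bambi. It had 282, 221 and 219 normalized counts in serum-starved and 3793, 3865.5 and 3971 in serum-stimulated control cells. With Lap2 siRNA the libraries had 581, 564 and 606 in 0.3% FBS and 4831, 5149 and 5574 in 15% FBS. The 4 groups did not overlap, and both Lap2-depleted groups were above their controls. Serum raised Smad7 16.1-fold with control siRNA (log2FC 4.01, standard error 0.09, edgeR adjusted p = 5.7e-28) and 8.89-fold with Lap2 siRNA (log2FC 3.15, standard error 0.08, edgeR adjusted p = 5.8e-26), the largest response of the 7 genes with either siRNA. Ordered from the highest log2FC, Smad7 was number 149 of all tested genes with control siRNA and number 286 with Lap2 siRNA. Lap2 siRNA raised Smad7 by a log2FC of 1.28 in 0.3% FBS and 0.42 in 15% FBS (standard errors 0.09 and 0.07, edgeR adjusted p = 2.2e-13 and 1.9e-05). The serum responses differed by -0.86 (95% confidence interval -1.09 to -0.63, edgeR adjusted p = 1.3e-06).

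The balance of the inhibitory SMADs shifted. Per kb of exon (GENCODE M21, within the gene bounds of the count tables), the ratio of the Smad7 to the Smad6 level was 0.764 ± 0.073 in serum-starved control cells and 9.93 ± 0.94 after serum, against 1.57 ± 0.13 and 6.03 ± 0.36 in Lap2-depleted cells (SD, n = 3 each). The ranges of this ratio in the 4 groups did not overlap.

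**Figure D2:**
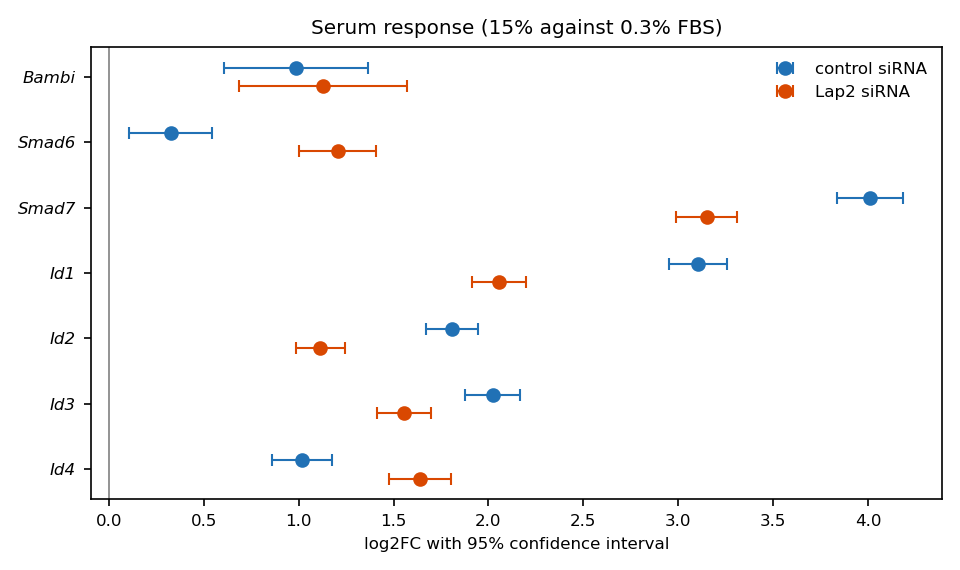
Serum response (log2FC of 15% against 0.3% FBS, horizontal axis) of the 7 tested genes (vertical axis) with control siRNA (blue) and Lap2 siRNA (orange). Points are edgeR estimates, whiskers are 95% confidence intervals, and filled points passed the adjusted p threshold, as all did. Smad7, Id1, Id2 and Id3 lie further right with control siRNA, and Smad6 and Id4 with Lap2 siRNA.

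Id1 (ENSMUSG00000042745; chr2:152736251-152737410, plus strand), widely used as a readout of BMP signalling, was higher in Lap2-depleted cells before serum and overlapped with control cells after it. The libraries of serum-starved control cells had 573, 517 and 535 normalized counts of Id1, and the serum-stimulated ones 4605, 4841 and 4529.9. In Lap2-depleted cells there were 1212, 1022 and 1042 in 0.3% FBS and 4640.2, 4496 and 4494 in 15% FBS. The starved groups were apart and the stimulated groups overlapped. Serum raised Id1 8.60-fold with control siRNA and 4.16-fold with Lap2 siRNA (log2FC 3.10 and 2.06, standard error 0.07 each, edgeR adjusted p = 1.2e-26 and 3.6e-22). With Lap2 siRNA the starved level was 2.02-fold higher, a log2FC of 1.01 (standard error 0.07, edgeR adjusted p = 6.3e-13), while in 15% FBS the log2FC was -0.04 (95% confidence interval -0.17 to 0.10, edgeR adjusted p = 0.77). The difference between the serum responses, -1.05 (95% confidence interval -1.25 to -0.85, edgeR adjusted p = 2.3e-09), was the largest of the 7 genes.

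Id2 (ENSMUSG00000020644; chr12:25093801-25096092 in the deposited counts, minus strand) was higher in Lap2-depleted cells in both conditions. It had 619, 609 and 651 normalized counts in serum-starved and 2199.6, 2219.6 and 2148 in serum-stimulated control cells. The Lap2-depleted libraries had 1553, 1426 and 1517 in 0.3% FBS and 3274, 3288 and 3170 in 15% FBS. The 4 groups were fully separate. The log2FC for Lap2 siRNA was 1.26 in 0.3% FBS and 0.57 in 15% FBS (standard errors 0.07 and 0.06, edgeR adjusted p = 3.4e-16 and 1.3e-08). Serum raised Id2 by 1.81 with control siRNA and 1.11 with Lap2 siRNA on the log2 scale (standard errors 0.07 and 0.06, edgeR adjusted p = 3.7e-21 and 6.2e-16), a difference of -0.69 (95% confidence interval -0.88 to -0.51, edgeR adjusted p = 1.3e-06).

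Id3 (ENSMUSG00000007872; chr4:136143497-136145755, plus strand) had the most reads of the 8 genes. Its libraries had 1642, 1445 and 1452 normalized counts in serum-starved and 6225, 5956.5 and 6252 in serum-stimulated control cells. With Lap2 siRNA there were 2494, 2259 and 2079.7 in 0.3% FBS and 7000.1, 6708 and 6389 in 15% FBS. The Lap2-depleted libraries were above the controls in both conditions, by a narrow gap in 15% FBS. The log2FC for Lap2 siRNA was 0.59 in 0.3% FBS (edgeR adjusted p = 2.5e-08, standard error 0.07). In 15% FBS it was 0.12 (95% confidence interval -0.01 to 0.26, edgeR adjusted p = 0.20). The latter gained a call after scaling to total counts (log2FC 0.21, edgeR adjusted p = 0.017). Serum gave a log2FC of 2.02 with control siRNA and 1.56 with Lap2 siRNA (standard error 0.07 each, edgeR adjusted p = 6.7e-22 and 7.7e-19), a difference of -0.47 (95% confidence interval -0.66 to -0.27, edgeR adjusted p = 0.00084).

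Id4 (ENSMUSG00000021379; chr13:48261427-48264036 in the deposited counts, plus strand), the ID family member known mainly from neural and mammary progenitors, went the other way in starved cells. Its GENCODE M21 bounds are wider (chr13:48261228-48266026). The serum-starved control siRNA libraries had 619, 570.1 and 599 normalized counts of Id4, and the serum-stimulated ones 1194, 1265 and 1161. In Lap2-depleted cells Id4 had 389, 416 and 361 in 0.3% FBS and 1162, 1287 and 1185.5 in 15% FBS. The starved Lap2-depleted libraries were the lowest of all, and the stimulated groups overlapped. Lap2 siRNA gave a log2FC of -0.62 in 0.3% FBS (edgeR adjusted p = 2.4e-07, standard error 0.08) and of 0.01 in 15% FBS (95% confidence interval -0.15 to 0.16, edgeR adjusted p = 0.98). The serum response had a log2FC of 1.64 with Lap2 siRNA and of 1.02 with control siRNA (standard error 0.08 each, edgeR adjusted p = 1.1e-17 and 7.5e-13), larger in Lap2-depleted cells by 0.62 (95% confidence interval 0.40 to 0.85, edgeR adjusted p = 0.00012). The antisense gene A330033J07Rik overlaps Id4 and had 1 to 16 reads per library. Whether the counting used strand was not given in the sources used here.

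**Figure D3:**
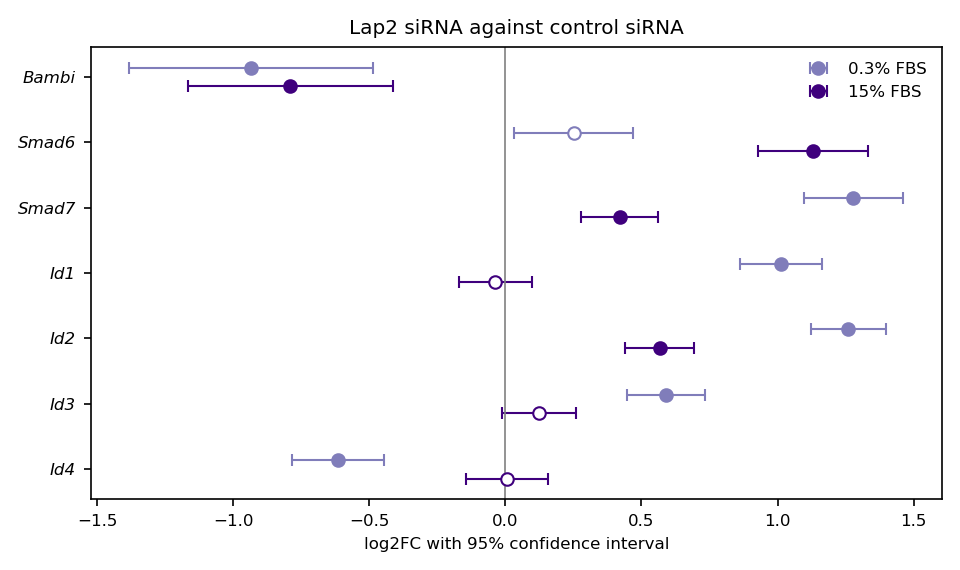
Effect of Lap2 siRNA against control siRNA (log2FC, horizontal axis) on the 7 tested genes (vertical axis) in 0.3% FBS (light) and 15% FBS (dark). Points are edgeR estimates and whiskers are 95% confidence intervals. Filled points passed the adjusted p threshold and open points (Smad6 in 0.3% FBS; Id1, Id3 and Id4 in 15% FBS) did not.

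Across the 7 genes, the serum responses differed between the siRNAs for 6, where 13.6% of all tested genes did. Smad7, Id1, Id2 and Id3 responded less in Lap2-depleted cells (6.51% of tested genes had a lower response), and Smad6 and Id4 responded more (7.09% had a higher response). The median difference was -0.47 over the 7 genes, beside 0.02 over all tested genes. The depletion itself also differed between the serum conditions. Tmpo had a log2FC for Lap2 siRNA of -1.38 in 0.3% FBS and -2.17 in 15% FBS, and its serum responses differed by -0.79 (edgeR adjusted p = 3.0e-06). Whether this unequal depletion bears on the differences of the 7 genes was not tested. The smaller responses of Smad7 and Id2 came with higher levels in Lap2-depleted cells both before and after serum, and that of Id1 with a higher level before serum. The groups did not overlap between serum conditions for 7 of 7 genes with either siRNA (42.0% and 41.7% of all tested genes), nor between siRNAs for 7 of 7 in 0.3% FBS (43.4%) and 5 of 7 in 15% FBS (38.8%). By the two-sided exact permutation test, each such separation of 3 libraries from 3 has p = 0.1, the smallest that the design allows.

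The makeup of the ID transcripts differed between the groups. Per kb of exon, the summed level of Id1 to Id4 was 2031 ± 98.9 normalized counts in serum-starved and 9433 ± 104 in serum-stimulated control cells, and 3309 ± 224 and 10250 ± 258 in Lap2-depleted cells (SD, n = 3 each). Id4 made up 17.7% ± 0.27 of this sum in serum-starved control cells, but only 7.09% ± 0.63 in serum-starved Lap2-depleted cells, close to its share after serum with either siRNA (7.71% ± 0.26 and 7.12% ± 0.43). The share of Id2 was 17.8% ± 1.03 in starved control and 26.1% ± 1.42 in starved Lap2-depleted cells, and fell to 13.3% ± 0.09 and 18.2% ± 0.23 after serum. Id1 gained share with serum, from 23.0% ± 0.09 to 42.6% ± 1.03 with control siRNA and from 28.4% ± 0.96 to 38.2% ± 0.58 with Lap2 siRNA. The share of Id3 was between 36.4% and 41.6% on average in a group. The sizes of the shares depended on the exon lengths. Of the GENCODE M21 exon bases, 1660 of 3849 of Id4 and 1739 of 2438 of Id2 lie within the gene bounds. With full exons in place of those within the gene bounds, an alternative chosen after seeing the data, Id4 made up 8.99% in serum-starved control cells and 3.46% in serum-starved Lap2-depleted cells, and 3.62% and 3.39% after serum. Id3 was then between 39.6% and 49.0% on average in a group, and Id2 made up 13.9% to 15.8% in the libraries of starved control and 20.1% to 22.4% in those of starved Lap2-depleted cells.

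**Figure D4:**
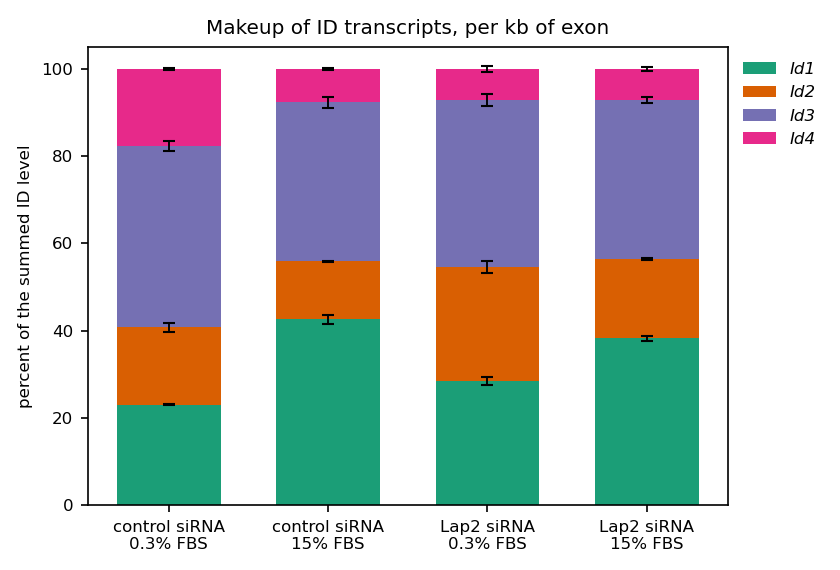
Makeup of the summed ID level per kb of exon (vertical axis, percent) in the 4 groups (horizontal axis). Segments are means of 3 libraries and whiskers at the top of each segment are its SD. The Id4 segment is largest in serum-starved control cells (17.7%) and near 7% to 8% in the other groups.

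The other genes of the pathway were read from a list of 61, of which 47 were tested and 14 had 0 to 11 reads in all libraries together. For serum stimulation, 24 of the 47 changed with control siRNA (16 rose, 8 fell) and 28 with Lap2 siRNA (25 rose, 3 fell), where 29.5% and 33.2% of all tested genes did. The division depended on scaling: with total counts, 12 rose and 16 fell with control siRNA, and 15 rose and 10 fell with Lap2 siRNA. Lap2 siRNA changed 28 in 0.3% FBS, of which 9 rose and 19 fell, and 21 in 15% FBS, of which 7 rose and 14 fell, where 36.5% and 23.4% of all tested genes did. With total counts the latter division was 10 higher and 12 lower. In the descriptions below, Nbl1, Grem1, Chrd, Skil, Pmepa1 and Tgif1 were named by the size of their changes, and the others were chosen after their values were seen.

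Of the 11 tested receptors and co-receptors, 7 were lower in Lap2-depleted cells and 1, the activin receptor Acvr2a, higher in 0.3% FBS, where 18.6% of all tested genes were lower and 17.8% higher. In 15% FBS 6 were lower and Acvr2a was again higher, where 12.1% of all tested genes were lower and 11.4% higher. The median log2FC of the 11 was -0.46 and -0.31, beside 0.01 and 0.02 over all tested genes. The BMP co-receptor Rgma had a log2FC of -0.93 in 0.3% FBS and -0.45 in 15% FBS (standard error 0.07 each, edgeR adjusted p = 3.3e-13 and 2.9e-06). The TGF-β receptor gene Tgfbr2 had a log2FC of -0.81 in 0.3% FBS (edgeR adjusted p = 8.8e-11, standard error 0.07). Its groups overlapped in 15% FBS, where the log2FC was -0.11 (edgeR adjusted p = 0.35). The call of Acvr2a in 0.3% FBS (log2FC 0.27, edgeR adjusted p = 0.042) was lost without any of 5 libraries. These were replicate 1 of control siRNA in 0.3% FBS (edgeR adjusted p = 0.14), replicates 1 (0.053) and 2 (0.050) of control siRNA in 15% FBS, and replicates 2 (0.14) and 3 (0.083) of Lap2 siRNA in 0.3% FBS. The call was also lost with only the 2 groups compared in the fit (log2FC 0.26, edgeR adjusted p = 0.067) and at a threshold of 0.01.

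Of the 6 signal-carrying SMADs, most did not pass the test for Lap2 siRNA. Of them, only Smad3 passed the test in 0.3% FBS (log2FC 0.30, edgeR adjusted p = 0.0021) and only Smad5 in 15% FBS (0.26, edgeR adjusted p = 0.0065). With serum, the BMP-type Smad1 rose by a log2FC of 1.19 with control siRNA and 1.17 with Lap2 siRNA (standard error 0.08 each, edgeR adjusted p = 6.1e-14 and 1.0e-13), while the low Smad9 fell by 0.83 and 1.09 on the log2 scale (standard error 0.17 each, edgeR adjusted p = 0.00028 and 5.5e-06).

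Extracellular antagonists, which bind BMPs or related ligands, held the largest changes with Lap2 siRNA in 0.3% FBS among the listed genes that passed the test. Nbl1 had 1924 ± 202 normalized counts in serum-starved control cells and 241 ± 14.1 in Lap2-depleted cells (SD, n = 3 each; log2FC -2.996, standard error 0.11, edgeR adjusted p = 8.4e-21), and Chrd (chordin) had 494 ± 24.4 and 118 ± 10.6 (log2FC -2.06, standard error 0.11, edgeR adjusted p = 4.8e-16). Grem1 (gremlin 1) went up, from 41.0 ± 12.7 to 234 ± 20.3 (log2FC 2.50, standard error 0.21, edgeR adjusted p = 9.3e-12). The same directions held in 15% FBS, with log2FC of -1.03 for Nbl1, -1.18 for Chrd and 1.47 for Grem1 (edgeR adjusted p = 9.8e-11, 1.7e-10 and 3.0e-08). Fst (follistatin) had 74.9 ± 9.58 normalized counts in starved control and 6.78 ± 4.31 in starved Lap2-depleted cells, and 162 ± 15.4 and 91.7 ± 12.6 after serum (SD, n = 3 each). Over the 10 tested antagonists, 3 were higher and 5 lower in 0.3% FBS, and 2 were higher and 4 lower in 15% FBS, against 17.8% and 18.6% of all tested genes in the former and 11.4% and 12.1% in the latter.

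Among intracellular regulators, the corepressor gene Skil had the largest serum responses. It rose by a log2FC of 3.79 with control siRNA and 3.04 with Lap2 siRNA upon serum (standard errors 0.10 and 0.09, edgeR adjusted p = 9.8e-26 and 1.1e-23), and was higher in starved Lap2-depleted cells by 0.89 (standard error 0.10, edgeR adjusted p = 1.1e-08). In 15% FBS the log2FC of Skil for Lap2 siRNA was 0.15 (edgeR adjusted p = 0.19) and its groups overlapped. Pmepa1, which restrains receptor-regulated SMADs, rose with serum by 1.83 and 2.08 on the log2 scale, and Tgif1, another corepressor gene, by 1.76 and 1.51 (edgeR adjusted p = 1.6e-12, 1.9e-13, 2.6e-20 and 1.2e-18). Of the E proteins, the partners of ID proteins, all 3 were lower in Lap2-depleted cells in 0.3% FBS, where 18.6% of all tested genes were lower. Tcf3 had a log2FC of -0.45, Tcf4 of -0.46 and Tcf12 of -0.21 (edgeR adjusted p = 2.1e-07, 5.9e-07 and 0.012). The call of Tcf12 was lost after scaling to total counts (log2FC -0.10, edgeR adjusted p = 0.26) and without replicate 2 (0.13) or 3 (0.065) of control siRNA or replicate 1 of Lap2 siRNA (0.11) in 0.3% FBS. In 15% FBS, where 12.1% of all tested genes were lower, Tcf4 had a log2FC of -0.43 and Tcf3 of -0.19 (edgeR adjusted p = 3.8e-06 and 0.016). The call of Tcf3 was lost with total counts (log2FC -0.11, edgeR adjusted p = 0.21) and without replicate 1 of control siRNA (0.064) or replicate 3 of Lap2 siRNA (0.055) in 15% FBS.

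Of 4 tested genes among 8 other known BMP targets, Atoh8 was higher with Lap2 siRNA in both conditions (log2FC 0.62 and 0.85, standard error 0.08 each, edgeR adjusted p = 1.1e-07 and 4.9e-10). The other 3 did not pass the test in either. Of these only Runx2 was abundant, at 1056 to 1630 normalized counts on average in a group. Hey1 had 5 to 11 and Sp7 2 to 13 reads per group of 3 libraries, too few to show that they did not change. Msx1, Msx2, Dlx3 and Dlx5, transcription factor genes that BMPs induce in skeletal and ectodermal tissue, had 0 to 5 reads in all libraries together.

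**Figure D5:**
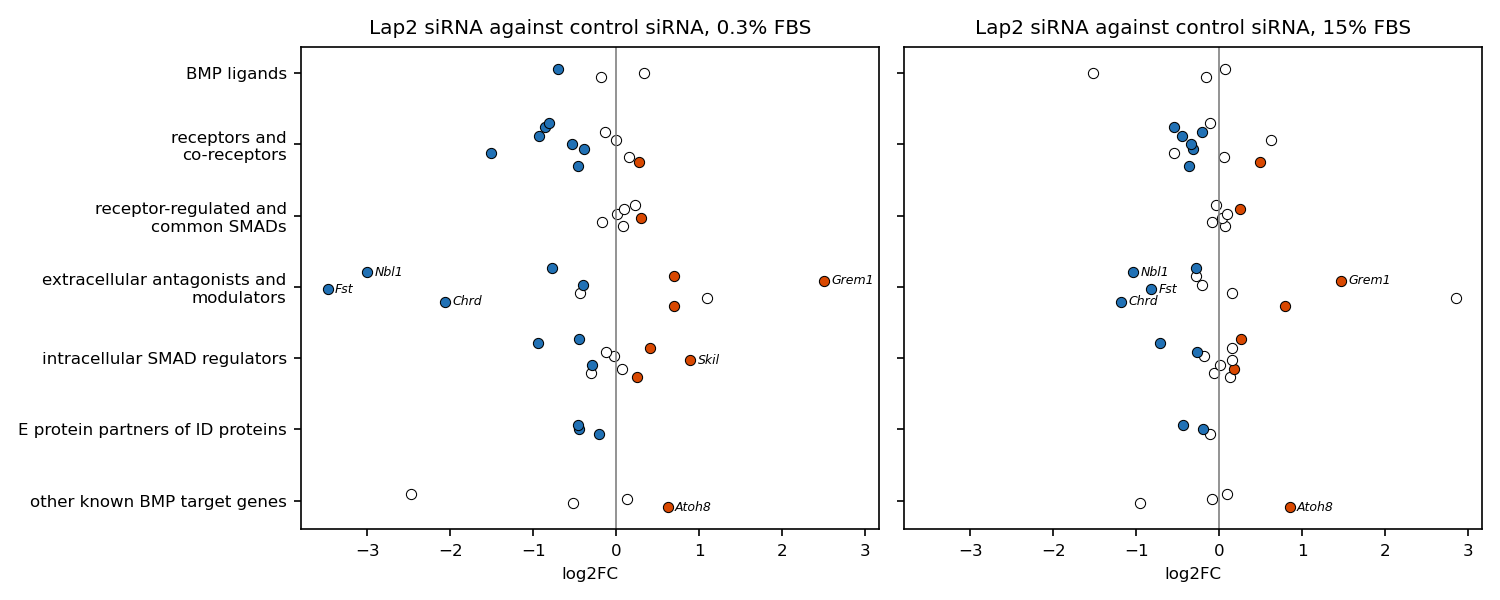
Effect of Lap2 siRNA (log2FC, horizontal axes) on the 47 tested pathway genes, by role (vertical axis), in 0.3% FBS (left) and 15% FBS (right). Each point is a gene; orange passed the edgeR threshold as higher, blue as lower, and white did not pass. Nbl1, Chrd and Fst lie at the left and Grem1 at the right edge of the antagonists in 0.3% FBS.

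Genes with the most similar course over the 12 libraries were sought for the 6 members that averaged 100 or more normalized counts, by the root mean square difference of centred log2 values, among 10448 genes. Bambi, at a mean of 72.5, was not included. Closest to Smad7 were the early response genes Nr4a2 (0.22) and Ier2 (0.23) and the corepressor gene Skil (0.24), where the median gene was 1.86 away. Id1 was closest to Pxdc1 (0.13), Fhl2 (0.15) and Dusp1 (0.16), with a median of 1.35. Id3 was closest to Irf2bp2 (0.11), Vasn (0.12) and the chemokine gene Ccl2 (0.13), with a median of 0.94, and Id2 to Il1rl1 (0.19), Ccl7 (0.20) and Nrn1 (0.22), with a median of 0.89. Smad6 was closest to Ddit4 (0.17), Arrdc3 (0.18) and Socs1 (0.20), with a median of 0.59, and Id4 to Grasp (0.11), Odc1 (0.15) and Fam214b (0.16), with a median of 0.71. Within the 6 members, Id2 and Id3 were nearest to each other (0.34), and the inhibitory SMADs were the farthest apart (1.48). All points share the same libraries, so that these distances are a description.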

How the data were processed

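The authors aligned the reads to mm10 with TopHat2, counted them per gene with HTSeq and deposited the counts without normalization, 49671 genes per library. Tool versions, the annotation and the strand setting were not given in the sources used here. The submitters' processing notes also name DESeq2, whose results were not used.

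From the counts, all 12 libraries were fitted in R 4.3.3 with edgeR 4.0.16 (TMM, a mean per group, glmQLFit and glmQLFTest) on the 18668 genes that reached more than 1 read in 3 or more libraries. P-values were adjusted by Benjamini-Hochberg over all of these, with a threshold of 0.05. Standard errors were taken from the log2FC and its F statistic. No pair of libraries was identical (0 pairs), and 18026298 to 26265253 counts per library limit precision mainly for Bambi. The fit was tested on simulated data for 1 contrast, serum stimulation with control siRNA. Of 200 genes given a log2FC of 1, 62% were recovered, and 10 unchanged genes were called. Recovery was 100% for genes with a mean of 100 or more normalized counts but 17.4% for those under 100, so that an uncalled low gene may have changed. Promoters and motifs were read with Python 3.11.15, and figures were made with matplotlib 3.10.9. Levels per kb use GENCODE M21 exons (GRCm38), clipped to the gene bounds in the count tables.

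The members and the pathway list were chosen with earlier results of these data known. All members are named. Of the pathway list, the rule named 3 genes per contrast, those of largest absolute log2FC that passed the test, averaged 100 or more normalized counts and, between 2 groups, showed no overlap. A gene that this rule named is not reported here. For likeness it named the 3 closest genes. Of 11 motifs looked at, 6 were kept. Alternatives were DESeq2 1.42.0, total-count and upper-quartile scaling, 3 filters, fits of 2 groups, a replicate block, a threshold of 0.01 and each library left out.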

Additional observations from a re-analysis of the deposited data

Results flagged for a closer look

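For 6 of the 7 tested genes the serum response differed between the siRNAs by edgeR's interaction term. The response with Lap2 siRNA minus that with control siRNA was 0.88 for Smad6, -0.86 for Smad7, -1.05 for Id1, -0.69 for Id2, -0.47 for Id3 and 0.62 for Id4 on the log2 scale. Among the pathway genes named, the same test separated the responses of Nbl1 (1.96), Fst (2.66), Chrd (0.88), Gdf5 (0.77), Tgfbr2 (0.70), Rgma (0.48), Tcf3 (0.25), Grem1 (-1.04) and Skil (-0.74). Fst had only 20 reads in the 3 libraries of starved Lap2-depleted cells. Its difference was 2.23 to 3.22 with each library left out (highest edgeR adjusted p = 2.5e-05). For Grem1 the call rested on replicate 1 of control siRNA in 0.3% FBS, without which the difference was -0.83 (edgeR adjusted p = 0.055). The call of Tcf3 (edgeR adjusted p = 0.039) was lost with total counts (0.23, edgeR adjusted p = 0.071), with upper-quartile scaling (0.24, edgeR adjusted p = 0.053), with any count (0.25, edgeR adjusted p = 0.067), at a threshold of 0.01 and without any of 10 libraries, the differences with each of the 12 libraries left out being 0.19 to 0.27. Groups of 3 libraries are too small for a test of outlying libraries.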

How the results depend on the processing

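Of 728 values of the 7 tested genes under the alternatives, 702 kept their direction and their side of the threshold. The counts of called genes of both lists stayed within 1.5 times the reported ones throughout. The 5 that lost a call were all the serum response of Smad6 with control siRNA, and the 5 that gained one were 4 of Smad6 with Lap2 siRNA in 0.3% FBS and 1 of Id3 in 15% FBS, given above except for the loss at a threshold of 0.01. The 16 that changed sign were uncalled: Id4 with Lap2 siRNA in 15% FBS was -0.0068 with DESeq2, -0.003 with filterByExpr, -0.0038 with any count, -0.0042 with a count above 1 in every library and -0.0038 with only the 2 groups, and -0.04 to 0.0407 with each library left out. Id1 in 15% FBS was 0.0499 with total counts. The Bambi difference between serum responses was -0.0577 to 0.3647 with each library left out, negative without replicate 3 of Lap2 siRNA in 0.3% FBS. Of 1104 values of named pathway genes, 1073 kept direction and call and 31, of Acvr2a, Tcf3, Tcf12 and Grem1, lost the call.

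The titles give no replicate numbers, so libraries were numbered within each group in the order of their titles. Same-numbered libraries of different groups did not deviate together (correlations -0.12 to 0.10 over 18 pairs, 0 above 0.1). This shows no sign of pairing in that order, but cannot tell whether the samples were paired, since another order was not examined. With the replicate number as a block, 7, 7, 6, 4 and 6 of the 7 genes were called in the 5 contrasts, as without it, and the Smad6 serum response with control siRNA was 0.32 (edgeR adjusted p = 0.022).

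Depth limits Bmp4 and Bambi, and 3 libraries per group limit the exact tests to p = 0.1. The causes of these dependences were not tested.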
